A study of Mus musculus with 2 samples.

Results

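Cadherins and protocadherins were examined as a gene family in single cells of the newborn mouse hypothalamus. The members were the genes whose symbol is Cdh followed by digits or begins with Pcdh and that had at least 30 UMIs (unique molecular identifiers, each standing for 1 captured RNA molecule) over all cells. Of 24905 genes in the table, 86 had such a symbol and 56 of these reached the minimum. Just inside it were Pcdhga6 with 33 UMIs, Pcdhga1 with 32 and Pcdhgb6 with 31, and just outside were Cdh15 and Pcdhgb7 with 28 each and Pcdhb15 with 27.

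The cells came from hypothalami of CD-1 pups aged 1 to 4 days and were sorted live for the red protein tdTomato, then sequenced from the 3' end by Drop-seq, a droplet method with barcoded beads. The control library carried Sim1-Cre and tdTomato. The Sim1 heterozygous library (Sim1Het) carried Sim1-Cre, tdTomato and Sim1+/-, so both groups shared the Cre and the reporter, and only the second lacked a copy of Sim1, a transcription factor needed to form the paraventricular nucleus (PVN). The question behind the series was the misexpression of Irx3 and Irx5 in the PVN after loss of a Sim1 copy. The reporter was Ai14, which stays on in every descendant of a cell in which Cre was active, so the sort took the Sim1 lineage and not only cells with Sim1 RNA at the time. Each library pooled 6 pups per the sample labels, and no cell can be traced to a pup. With 1 library per genotype, differences between the genotypes have no replicate check and no p-value is given for them.

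Cadherins are transmembrane proteins that hold neighbouring cells together when their outer domains meet in the presence of calcium. Classical cadherins (type I and type II) bind catenins and through them the actin skeleton, and neurons that share a type II cadherin often sort together or connect. Protocadherins fall into the non-clustered delta-1 and delta-2 groups, known for axon growth and circuit assembly, and the clustered alpha, beta and gamma genes, from which single neurons pick combinations that mark their own processes.

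The control library held 2807 barcodes with 6525080 UMIs and the Sim1Het library 2476 barcodes with 5397693 UMIs, and 0 barcodes were shared. Barcodes with under 300 genes were left out, which kept 2806 control cells (median 1772.5 UMIs) and 2454 Sim1Het cells (median 1583 UMIs). Sim1 stood at 120.4 CPM (UMIs per 1000000 UMIs of the group) in control and 98.5 in Sim1Het cells outside the marker gates described below. RNA of the pituitary marker list, mostly growth hormone (Gh), was at 200.2 to 386.9 CPM in every control group and at 1 UMI in all Sim1Het groups together. Its part in the differences between libraries was not tested.

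Non-clustered genes supplied most of the family's RNA. The 5 delta-2 protocadherins held 36.7% of the UMIs of all matching genes, the 10 type II members 17.5%, the type I cadherins Cdh2 and Cdh4 14.1%, the 4 delta-1 protocadherins 13.0%, and Cdh13 8.39%. The 7 alpha, 12 beta and 13 gamma members were thinly captured, with 1.56%, 3.26% and 2.76%. Pcdh17, a delta-2 protocadherin known for axon extension and synapse assembly, was first with 5903 UMIs. It was followed by the neural cadherin Cdh2 (3049 UMIs), the membrane-anchored T-cadherin Cdh13 (2730), Pcdh10 (2695), Pcdh9 (2494) and Pcdh19 (2376). Cdh8 (1969 UMIs), Cdh11 (1743), Cdh4 (1545) and Pcdh7 (1016) completed the 10 most captured members. These are counts of 3' ends, which need no length scaling, but how well each 3' end was captured was not tested.

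All 56 members were found in the GENCODE M21 annotation of mm10. The 32 clustered members lie on chromosome 18, where 20 of them, the alpha and gamma genes, share an annotated 3' end with other matching genes, and 21 are overlapped there on the same strand by another gene model. Since the sequenced ends were 3' ends, the split of UMIs among clustered genes is uncertain. None of the 24 single-locus members shares a 3' end, although Pcdh10 and Cdh8 have an antisense gene model there, and whether the counting kept strands apart is not stated in the labels.

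Neuron groups were taken by raw UMIs of marker genes in each cell. Cells with at least 10 Oxt UMIs, whatever their Avp count, made the Oxt gate (oxytocin, 67 control and 10 Sim1Het cells). Cells with at least 10 Avp UMIs and under 10 Oxt UMIs made the Avp gate (vasopressin, 49 and 15 cells). At least 3 UMIs were asked of Crh (corticotropin-releasing hormone, 23 and 32 cells), of Trh (thyrotropin-releasing hormone, 42 and 32), of Tcf7l2 (93 and 15) and of the GABA genes Gad1, Gad2 and Slc32a1 together (30 and 38). At least 2 UMIs were asked of Foxb1 (654 and 870) and of Neurod6 (50 and 27). Cells in several gates (21 and 11) were left out, and 1777 control and 1404 Sim1Het cells in no gate made the ungated reference. The gate genes together made up 12.2% of UMIs in control and 13.2% in Sim1Het Oxt cells. Oxt itself gave only 2778 of 239807 and 428 of 46304 UMIs there. Among the other gate genes only Avp was not held under its threshold in that gate, so most of its hormone RNA was Avp. The gates were not equally deep: the median cell had 3117 and 4817.5 UMIs in the Oxt gate, 1540 and 1693 in the Avp gate, 1836 and 2088 in the Foxb1 gate, and 1616 and 1183.5 among ungated cells.

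Marker lists not used for gating were read in each gate. The summed PVN factors Sim1, Otp, Pou3f2 and Arnt2 reached 1264 and 907 CPM (control and Sim1Het) in the Oxt gate, 1479 and 1127 in the Avp gate, 1017 and 1061 in the Crh gate and 931 and 900 in the Trh gate, against 152 and 162 in the Foxb1 gate and 65 and 30 in the Tcf7l2 gate. The mammillary list reached 981 and 1053 CPM in the Foxb1 gate, and the thalamus list 697 and 393 CPM in the Tcf7l2 gate. The nuclear factor I list reached 684 and 417 CPM in the Neurod6 gate, where PVN factors stood at 311 and 652 CPM. The GABA gate was mixed: GABA-lineage genes were at 389 and 137 CPM, PVN factors at 377 and 816 CPM, and the glutamate marker Slc17a6 at 519 CPM in both libraries, against 612 and 750 CPM in ungated cells. Lists for astrocytes or radial glia were at 0 in the Oxt and Avp gates and at 298 and 453 CPM in the ungated reference, of which 30 control and 42 Sim1Het cells were glia-marked.

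Each gate was tested against the ungated cells on UMIs summed per library, with library as a block, by edgeR's quasi-likelihood test. Genes were called at a Benjamini-Hochberg adjusted p under 0.05, adjusted over 4722 genes. Shares of all tested genes are over the 4713 of these that are not gate genes. Of the 56 members, 16 passed the low-count filter and entered the test, all of them single-locus genes. The other 40 could not be tested there, and in a fit without the filter none of them was called in any gate (lowest adjusted p = 0.067, Pcdhb9 in the Foxb1 gate). The 8 gates share their ungated reference, so their results are not independent of each other. Each group has only 2 sums, from pools of different genotype. The library term takes out the average difference between the libraries. The p-values therefore rest on how far the group differences vary between the 2 libraries, a spread estimated over all groups together. That spread holds genotype too, and it does not measure the spread between pups. UMIs of a group sum over its cells, so fewer cells with a gene and less RNA per cell cannot be told apart in the CPM.

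**Figure D1:**
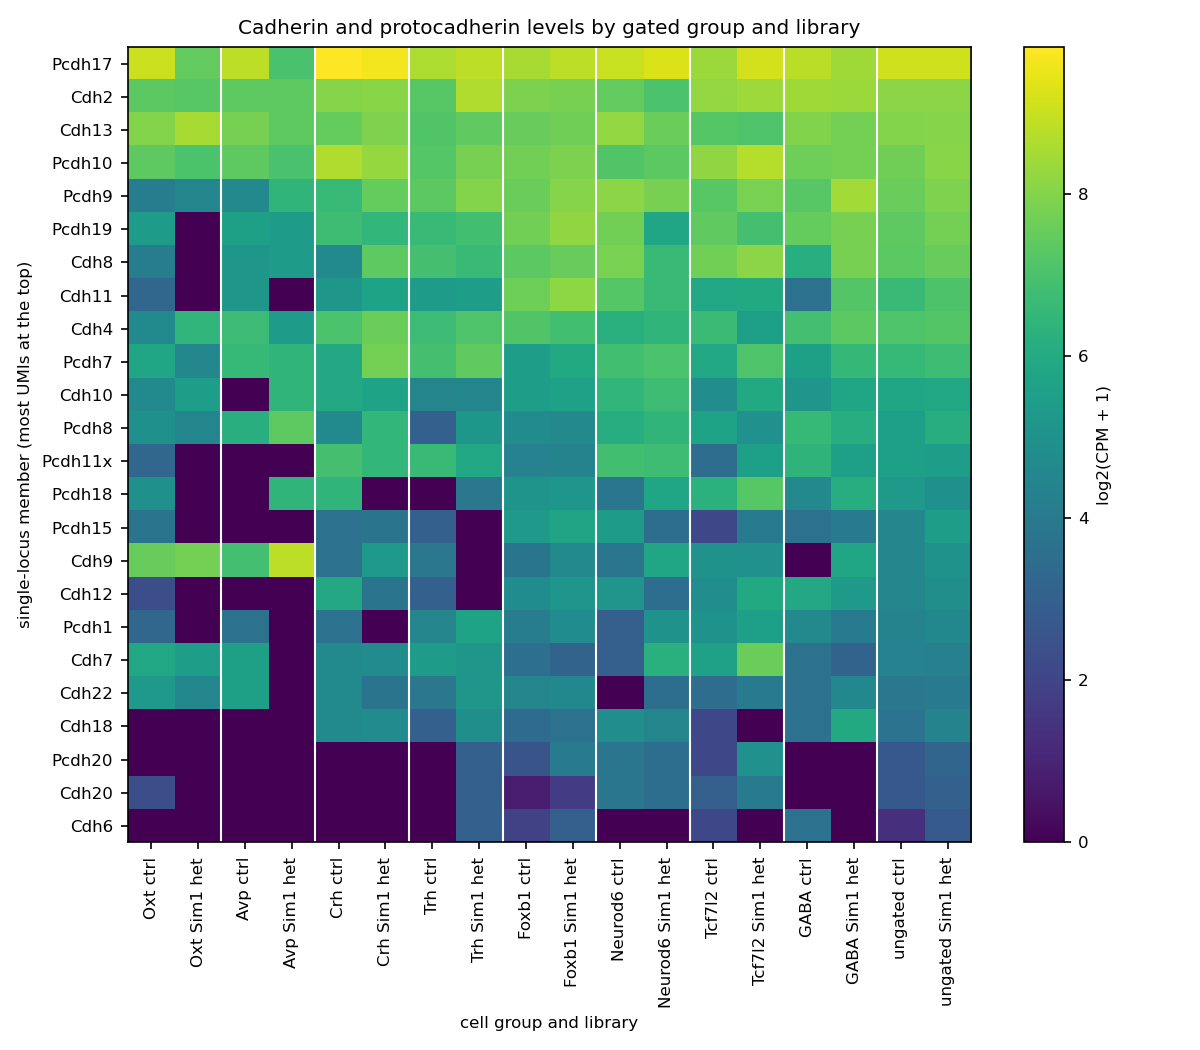
Levels of the 24 single-locus members (rows, from Pcdh17 with the most UMIs to Cdh6) in the 8 gates and the ungated cells (columns, control beside Sim1Het), as log2(CPM + 1). Pcdh17 is bright in nearly every column, Cdh9 is brightest in the Oxt and Avp columns, and Pcdh9, Pcdh19, Cdh8 and Cdh11 are darker there than in ungated cells.

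In the Oxt gate Cdh9 was about 9 times higher than in ungated cells, and Pcdh9, Cdh8, Cdh11, Pcdh19, Cdh4 and Pcdh11x were lower. In all 2 members were called higher and 6 lower among the 16 tested, where 7.34% and 6.56% of all tested genes were called higher and lower. The median log2 difference was -0.71 over the 16 members and -0.02 over all tested genes. Summed over all 56 members, the family stood at 1785 CPM in control and 1425 CPM in Sim1Het Oxt cells, against 2626 and 2986 CPM in ungated cells. The pan-neuronal list (Snap25, Stmn2 and Tubb3) was lower there too, at 5621 and 4470 CPM against 9926 and 8042 CPM. A lower sum by itself therefore does not set the family apart.

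Cdh9 is a type II cadherin known for matching synaptic partners in the hippocampus and for layer choice of retinal bipolar cells. The gene lies on chromosome 15 (mm10, 16728756 to 16857094, plus strand). In the Oxt gate it had 44 UMIs in the control library (183.5 CPM) and 10 in the Sim1Het library (216.0 CPM). Ungated cells had 88 and 80 UMIs, or 22.4 and 31.3 CPM. Both Oxt values thus lay far above both reference values, and the fitted log2 difference was 3.21 ± 0.36 (SE, 2 libraries), or 9.27-fold, at an adjusted p of 1.4e-09 by edgeR. Cdh9 passed the low-count filter through its high values in the Oxt and Avp gates, so its entry into the test was not independent of the result. The fit without the filter also called it in both gates.

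Cdh9 RNA was found in 27 of 67 control Oxt cells (40.3%, exact Clopper-Pearson 95% interval 28.5 to 53.0%) and in 3 of 10 Sim1Het Oxt cells (30.0%, 6.67 to 65.2%). The most UMIs in a single cell were 4 of the 44 in control and 5 of the 10 in Sim1Het. Among ungated cells the shares were 3.88% and 4.42%. Glia-marked cells had Cdh9 in 0 of 30 control and 0 of 42 Sim1Het cells, at shallower medians of 1253 and 913.5 UMIs, which allows shares of up to 10% and 7.14% for cells with a UMI and sets no limit on cells expressing the gene. With each cell thinned to 857 UMIs, Cdh9 stayed in 14.9% of control Oxt cells (7.40 to 25.7%) against 2.23% of ungated control cells, and it was found in 0 of the 10 Sim1Het Oxt cells, which allows up to 30.0%.

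Cdh8 is another type II cadherin, known from cortical and retinal circuits, and was the opposite of Cdh9 in these cells. The gene lies on chromosome 8 (mm10, 99024471 to 99416471, minus strand). Oxt cells had 4 Cdh8 UMIs in control (16.7 CPM) and 0 in Sim1Het, where ungated cells had 162.8 and 182.1 CPM. The difference was -3.35 ± 0.57 on the log2 scale (adjusted p = 1.4e-05, edgeR). Only 4 of 67 control Oxt cells had a Cdh8 UMI (5.97%), against 21.3% of ungated control cells, although the Oxt cells were deeper.

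The promoters of these type II cadherins, which moved in opposite directions in the same cells, are shown for comparison, from 250 bases before to 50 after the annotated start (RefSeq, GRCm38.p6). Every CG dinucleotide is in capitals. The Cdh9 promoter is chr15:16728665-16728964 (plus strand) and the Cdh8 promoter is chr8:99416422-99416721 (minus strand), both written 5′ to 3′.
Cdh9: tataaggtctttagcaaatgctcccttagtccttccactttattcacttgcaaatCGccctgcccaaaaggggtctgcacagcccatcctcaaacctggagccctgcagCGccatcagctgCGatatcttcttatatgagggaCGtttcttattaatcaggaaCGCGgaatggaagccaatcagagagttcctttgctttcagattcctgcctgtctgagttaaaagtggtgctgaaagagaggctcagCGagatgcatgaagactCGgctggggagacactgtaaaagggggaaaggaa
Cdh8: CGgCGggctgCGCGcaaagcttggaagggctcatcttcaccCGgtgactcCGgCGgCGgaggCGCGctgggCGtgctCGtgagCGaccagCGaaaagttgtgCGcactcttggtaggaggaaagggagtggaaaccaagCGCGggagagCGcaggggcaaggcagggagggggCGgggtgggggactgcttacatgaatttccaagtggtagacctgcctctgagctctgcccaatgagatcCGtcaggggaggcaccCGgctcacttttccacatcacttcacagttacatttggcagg
The Cdh9 promoter holds 8 CG dinucleotides and is 48.7% G or C, and the Cdh8 promoter holds 21 and is 62.3% G or C. Of 32851 RefSeq promoters of the same length, 48.6% hold at least 8 CG dinucleotides and 24.8% at least 21. Of the 56 members, 18 had an entry in that table. The counts describe the letters only, and no binding or methylation data were analysed here.

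The delta-1 protocadherin Pcdh9 (chromosome 14, 93013410 to 93890679, minus strand) was nearly missing from Oxt cells. It had 4 UMIs in control (16.7 CPM) and 1 in Sim1Het (21.6 CPM), against 187.0 and 238.4 CPM in ungated cells, a log2 difference of -3.26 ± 0.46 (adjusted p = 3.1e-07, edgeR; -3.17 and -2.47 in the libraries alone). Cdh11, a type II cadherin first known from bone cells, had 2 UMIs in control Oxt cells (8.34 CPM) and 0 in Sim1Het, against 98.3 and 131.7 CPM, and fell by 3.66 ± 0.70 on the log2 scale (adjusted p = 1e-04, edgeR). These genes were low in both libraries, and at 46304 UMIs over the 10 Sim1Het Oxt cells a count of 0 allows up to 64.8 CPM.

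Pcdh19, the X-linked delta-2 protocadherin of a known epilepsy syndrome, stood at 41.7 CPM in control Oxt cells and at 0 UMIs in Sim1Het, against 166.6 and 218.4 CPM. Its log2 difference was -2.16 ± 0.44 (adjusted p = 0.00021, edgeR), with -1.86 in the control library alone and, from the limit for 0 UMIs, at most -1.75 in the Sim1Het library alone. Cdh4, the type I R-cadherin, was lower by -1.81 ± 0.42 (adjusted p = 0.0013, edgeR), but its Sim1Het value of 86.4 CPM from 4 UMIs lay closer to the ungated 143.4 CPM than the control value of 25.0 did to 138.4, with log2 ratios of -0.41 and -2.25. Pcdh11x, a delta-1 gene, had 2 UMIs in control Oxt cells (log2 ratio -1.86) and 0 in Sim1Het, where the limit for 0 lies above the ungated 43.8 CPM and gives no direction. Its call (adjusted p = 0.039, edgeR) was lost under 5 of 11 alternatives.

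Cdh7, a type II cadherin known from the migration of embryonic cells, was called higher in Oxt cells. It had 14 UMIs in control (58.4 CPM) and 2 in Sim1Het (43.2 CPM), against 19.3 and 18.4 CPM, a log2 difference of 1.80 ± 0.61 (adjusted p = 0.038, edgeR). That call was lost under 6 alternatives, with adjusted p from 0.059 to 0.384, and the gene did not enter the test under 3 others. Pcdh17 and Cdh2, the most captured members, were not called in the Oxt gate. Pcdh17 stood at 525.4 CPM in control and 172.8 CPM in Sim1Het Oxt cells, and Cdh2 at 162.6 and 151.2 CPM against 273.6 and 277.8 CPM in ungated cells.

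**Figure D2:**
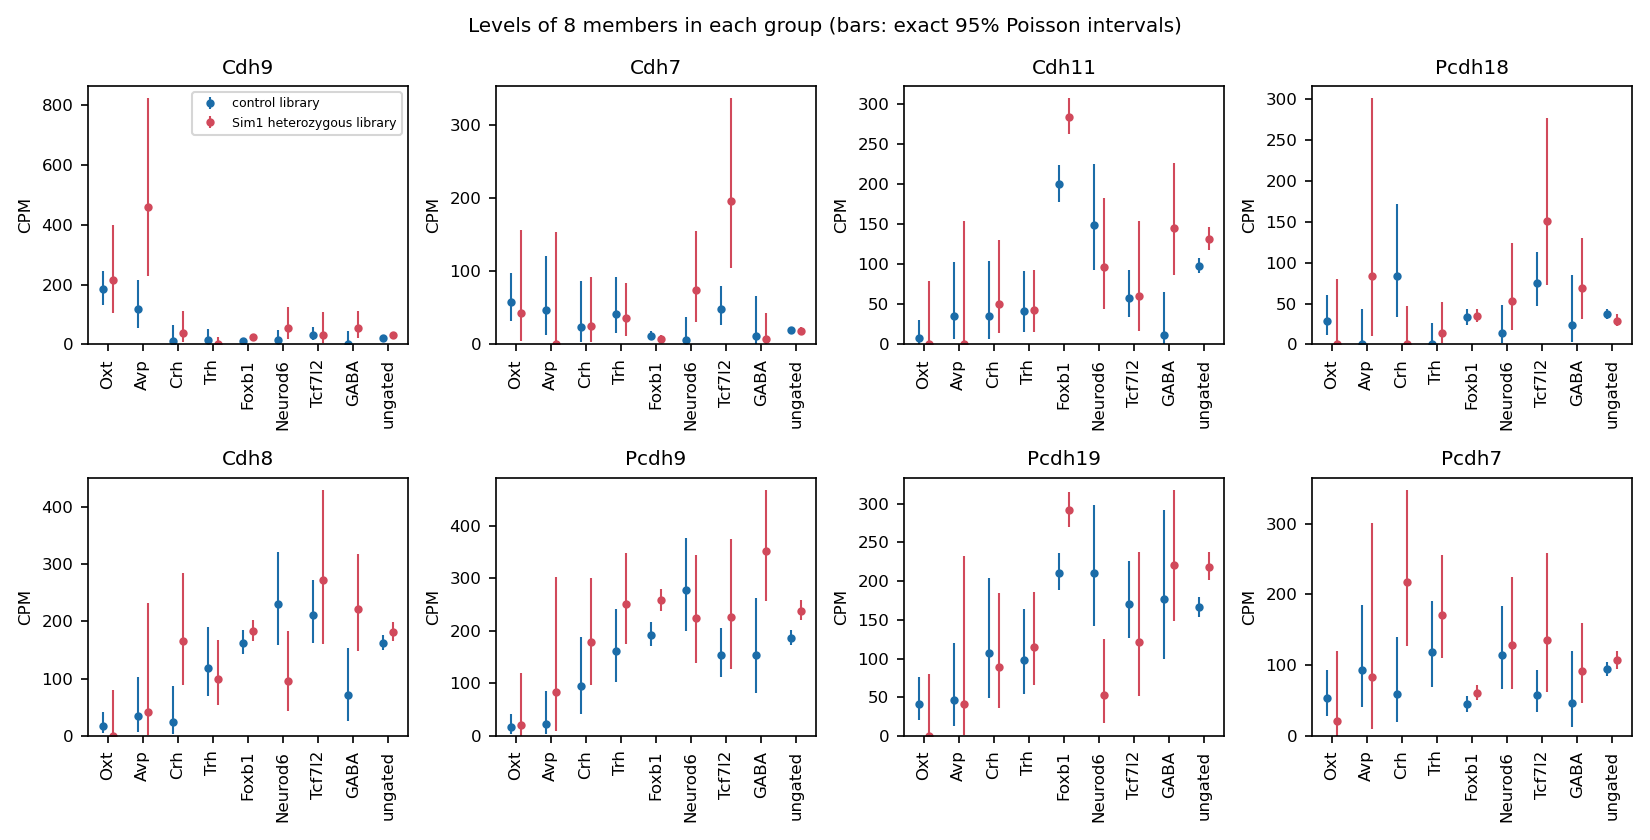
Levels in CPM of 8 members (panels) in each gate and the ungated cells, control library in blue and Sim1Het library in red, with exact 95% Poisson intervals that cover counting error only. Cdh9 stands at 117.4 to 459.0 CPM in the Oxt and Avp gates and at most 53.5 elsewhere, Cdh11 is highest in the Foxb1 gate, and Cdh7 and Pcdh18 have their highest values in Sim1Het Tcf7l2 cells, with wide intervals.

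In vasopressin cells, set against the same ungated cells, Cdh9 was called higher and Pcdh9, Cdh8 and Pcdh19 lower, 1 and 3 of the 16 tested members, where 2.74% and 3.14% of all tested genes were called. Cdh9 had 10 UMIs in control (117.4 CPM) and 11 in Sim1Het (459.0 CPM), and the log2 difference from ungated cells was 3.06 ± 0.53, or 8.36-fold (adjusted p = 5.2e-05, edgeR), with 2.51 in the control library alone and 3.98 in the Sim1Het library alone. Over the libraries, the Oxt and Avp gates gave 4 Cdh9 values. All of them lay above the 14 values of the other groups, which ran from 0 to 53.5 CPM. The hormone RNA of the Oxt gate was itself mostly Avp, so these values do not show Cdh9 in separate oxytocin and vasopressin cell types.

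Cdh9 was found in 8 of 49 control Avp cells (16.3%, 7.32 to 29.7%) and in 8 of 15 Sim1Het Avp cells (53.3%, 26.6 to 78.7%), and in the thinned cells in 10.2% and 30.0%. Their median depths were close (1540 and 1693 UMIs), and the intervals of the shares overlap. Oxt RNA itself is not absent from Avp-gated cells, since that gate only asks for under 10 Oxt UMIs. Avp RNA in turn is not limited in the Oxt gate, where all gate genes held 12.2% of control and 13.2% of Sim1Het UMIs. Oxt gave only 2778 of 239807 and 428 of 46304 UMIs there. The Oxt gate was also deeper, with medians of 3117 and 4817.5 UMIs, and deeper cells reach 10 Oxt UMIs more easily. The gates are therefore not strict cell types.

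Pcdh9 had 2 UMIs in each library's Avp cells (23.5 CPM in control and 83.5 CPM in Sim1Het), against 187.0 and 238.4 CPM, a log2 difference of -2.37 ± 0.57 (adjusted p = 0.0045, edgeR). All 2 UMIs came from 1 cell in each library, and the log2 ratio to ungated cells was -2.41 in the control library alone and -0.93 in the Sim1Het library alone. Cdh8 had 3 and 1 UMIs (35.2 and 41.7 CPM) and a log2 difference of -2.12 ± 0.67 (adjusted p = 0.044, edgeR; -1.80 and -1.13 in the libraries alone), and Pcdh19 4 and 1 UMIs (47.0 and 41.7 CPM) and a log2 difference of -1.93 ± 0.61 (adjusted p = 0.047, edgeR). The values of all 3 genes were low in both libraries, but the Pcdh9 call was lost under 2 of 12 alternatives that tested it, the Cdh8 call under 5 of 11 and the Pcdh19 call under 7 of 11.

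Cells with Cdh9 were also read for other members, without thinning. Of the 27 control Oxt cells with Cdh9, 17 also had Pcdh17, 7 had Cdh13, 4 had Cdh7, 2 had Cdh8 and 0 had Cdh11. Of the 8 control Avp cells with Cdh9, 3 had Pcdh17, 1 had Cdh13, 1 had Cdh8 and 0 had Cdh11. In Sim1Het, 2 of the 3 Oxt cells and 1 of the 8 Avp cells with Cdh9 had Pcdh17, and 0 of either had Cdh8 or Cdh11. With 0 to 4 cells holding Cdh8 or Cdh11 in each of these groups, the counts are too few to show whether Cdh9 cells lack them.

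Crh and Trh cells, which also carry the PVN factors, had lower Cdh9 values than the Oxt and Avp gates, on few UMIs with wide counting intervals. Cdh9 had 1 and 3 UMIs in Crh cells (12 CPM in control and 38.3 in Sim1Het) and 2 and 0 in Trh cells (14.0 CPM in control). With edgeR, 0 of 16 members were called in either gate, where 0.912% of all tested genes were called higher and 0.827% lower in the Crh gate, and 0.87% and 0.934% in the Trh gate. At an unadjusted p under 0.05 there were 6 members in the Crh gate and 8 in the Trh gate, and DESeq2 called 0 in both. The share of all tested genes at the unadjusted threshold is not given here, so these counts do not set the members apart.

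Pcdh17 was the member nearest to a call in Crh cells. It stood at 897.1 CPM in control (75 UMIs) and 805.2 CPM in Sim1Het (63 UMIs), the highest values of any member in any group, against 542.1 and 545.5 CPM in ungated cells. The log2 difference of 0.66 ± 0.21 had an adjusted p of 0.089 by edgeR. Both Crh values lay above both ungated values, and Pcdh17 was in 78.3% of control and 75.0% of Sim1Het Crh cells, or 56.5% and 69.0% once thinned. Against the mean of the other gates, and in thinned cells, it was called.

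Trh cells had Cdh11 at 42.0 CPM in control and 42.9 CPM in Sim1Het, with 6 UMIs each, below the ungated 98.3 and 131.7 CPM. The log2 difference was -1.43 ± 0.41 with an adjusted p of 0.060 by edgeR. Cdh2, which links neurons at synapses and along processes, was at 153.9 CPM in control Trh cells and 400.2 CPM in Sim1Het Trh cells, on either side of the ungated 273.6 and 277.8 CPM, so that its fitted difference was 0.00 ± 0.21.

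In Foxb1 cells, the largest gate, Cdh11 was about 2 times higher than in ungated cells. Its 291 control UMIs gave 200.5 CPM and its 627 Sim1Het UMIs 284.4 CPM, against 98.3 and 131.7 CPM in ungated cells. Each library showed the difference by itself, with log2 ratios of 1.03 in control and 1.11 in Sim1Het, and the fitted value was 1.09 ± 0.13, or 2.13-fold (adjusted p = 4.8e-09, edgeR). DESeq2 gave the same size at an adjusted p of 0.056. In this gate 2 of the 16 tested members were called higher and 5 lower, where 5.75% and 7.91% of all tested genes were called.

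Cdh11 (chromosome 8, 102632095 to 102785642, minus strand) was in 202 of 654 control Foxb1 cells (30.9%, 27.4 to 34.6%) and in 383 of 870 Sim1Het Foxb1 cells (44.0%, 40.7 to 47.4%), against 16.9% and 17.8% of ungated cells. Thinned to equal depth, the shares were 16.0% and 22.6%, against 8.85% and 11.7%. Glia-marked cells had Cdh11 in 3 of 30 control and 14 of 42 Sim1Het cells (10% and 33.3%), so that the ungated reference holds Cdh11 of glia-marked cells too. Their level was 97.9 CPM in control (4 UMIs) and 372.1 CPM in Sim1Het (17 UMIs, 216.8 to 595.8). The Sim1Het value lay above that of Sim1Het Foxb1 cells (284.4 CPM), which its interval includes, so a high Cdh11 is not particular to Foxb1 cells there. With those cells left out of the reference, the Foxb1 gate called 7 members, as before.

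Pcdh19 was the other member called higher in Foxb1 cells, with 210.8 CPM in control and 291.2 CPM in Sim1Het against 166.6 and 218.4 CPM, but the difference was small at 0.41 ± 0.13 on the log2 scale (adjusted p = 0.020, edgeR). It was lost with DESeq2, without the low-count filter and without the library term. The 5 lower members were Pcdh7, Pcdh8, Pcdh11x, Cdh13 and Pcdh17. Pcdh7, a delta-1 protocadherin, stood at 44.8 and 60.8 CPM against 94.7 and 107.1 CPM, a log2 difference of -0.92 ± 0.16 (adjusted p = 8.5e-06, edgeR). Pcdh8, a delta-2 gene that drives uptake of Cdh2 from synapses, stood at 25.5 and 23.6 CPM against 46.0 and 67.6 CPM, a log2 difference of -1.21 ± 0.22 (adjusted p = 2.5e-05, edgeR; -0.82 and -1.50 in the libraries alone). For both genes the 2 Foxb1 values lay below the 2 ungated values. The calls of Pcdh11x, Cdh13 and Pcdh17 were lost under 2, 4 and 5 alternatives.

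The Tcf7l2 gate, whose marker list is thalamic, had Cdh7 and Pcdh18 called higher and Cdh13 lower, 2 and 1 of the 16 tested members, where 2.44% and 1.97% of all tested genes were called. Cdh7 (chromosome 1, 109982431 to 110140157, plus strand) had 14 UMIs in control (47.8 CPM) and 13 in Sim1Het (196.4 CPM), against 19.3 and 18.4 CPM. The log2 difference was 2.11 ± 0.50 (adjusted p = 0.0047, edgeR), and it was 1.39 in the control library alone and 3.49 in the Sim1Het library alone, where 13 UMIs came from 4 of 15 cells. The direction was shared by both libraries, and the size was not.

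Pcdh18, a delta-2 protocadherin, had 22 UMIs in control Tcf7l2 cells (75.2 CPM) and 10 in Sim1Het (151.1 CPM), against 37.1 and 29.3 CPM, a log2 difference of 1.44 ± 0.43 (adjusted p = 0.037, edgeR), with 1.07 in the control library alone and 2.48 in the Sim1Het library alone. Cdh13, which lacks the catenin-binding tail, was at 150.4 and 135.9 CPM against 250.7 and 261.0 CPM, a log2 difference of -0.75 ± 0.22 (adjusted p = 0.031, edgeR). Cdh7 and Pcdh18 had their highest values in Sim1Het cells of this gate, which eases passing the low-count filter. Their entry into the test may therefore not be independent of the result. The fit without the filter also called all 3 genes. DESeq2 called only Cdh7 of these 3 genes. Without the deepest 2% of cells Cdh13 was not called, and Cdh7 and Pcdh18 did not enter the test.

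No member was called in the Neurod6 or the GABA gate by edgeR or DESeq2. In the Neurod6 gate 0.446% of all tested genes were called higher and 0.637% lower, and 5 members had an unadjusted p under 0.05. The delta-1 gene Pcdh11x came nearest, with 115.1 and 107.0 CPM against 45.2 and 43.8 CPM, a log2 difference of 1.32 ± 0.38 and an adjusted p of 0.087 by edgeR. In the GABA gate 0.0637% and 0.17% of all tested genes were called, and 1 member, Pcdh17, had an unadjusted p under 0.05. For neither gate is the share of all tested genes at the unadjusted threshold given here. Pcdh9 in GABA cells stood at 153.3 CPM in control and 351.0 CPM in Sim1Het, so its libraries lay on either side of the ungated 187.0 and 238.4 CPM.

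Clustered genes are given as sums, since the alpha and gamma genes share 3' ends. The beta members share none, but other gene models overlap their 3' ends on the same strand. The sums take in all matching genes, members or not: 12 alpha, 22 beta and 22 gamma. The alpha genes summed to 20.9 CPM in control and 43.2 in Sim1Het Oxt cells. They stood at 48.9 and 56.7 in Foxb1 cells, and 48.0 and 43.4 in ungated cells. The beta genes reached 133.3 and 120.8 CPM in Tcf7l2 cells, 110.2 and 139.7 in Foxb1 cells, and 89.7 and 111.8 in ungated cells. In Avp cells they stood at 58.7 CPM in control and 0 UMIs in Sim1Het. The gamma genes ran from 37.5 CPM (control Oxt cells) to 131.6 CPM (control Crh cells). No gate was tested for these sums.

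The partners of cadherins, a list of 32 genes for catenins, Fat, Dchs and Celsr cadherins, calsyntenins, nectins, processing enzymes and regulators of the clusters, were all in the table, and 13 entered the test. By edgeR 0 were called in the Oxt, Avp, Crh, Trh, Neurod6 and GABA gates. In the Foxb1 gate 1 was called higher and 3 lower, where 5.75% and 7.91% of all tested genes were, and in the Tcf7l2 gate 2 higher and 0 lower, where 2.44% and 1.97% were. In Foxb1 cells Adam10, the protease that sheds Cdh2, was higher by 0.83 ± 0.16 on the log2 scale (adjusted p = 9e-05, edgeR), and Clstn3, Ctnnd2 and Nectin3 were lower. Nectin3, an adhesion protein that works beside cadherins, stood at 19.3 and 18.1 CPM in Foxb1 cells against 41.2 and 41.8 CPM in ungated cells. In Tcf7l2 cells Ctnnb1 (beta-catenin, which ties classical cadherins to actin) was higher by 0.71 ± 0.16 (adjusted p = 0.0029, edgeR) and the catenin relative Pkp4 by 1.08 ± 0.27.

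Between the libraries, 14 of 56 members were at least 1.5-fold higher in Sim1Het and 0 were lower, where 7.82% and 9.27% of the 14600 genes with at least 30 UMIs were. The median log2 ratio, Sim1Het over control, was 0.22 over the members and 0.04 over those genes. Of the 14 higher members, 9 were clustered genes, whose split of UMIs is uncertain. Among members with at least 100 UMIs 5 were higher, and the share of all genes at that minimum is not given here. Markers of other cells also differed between the libraries: in ungated cells the microglia list stood at 20.8 CPM in control and 3.13 in Sim1Het, the endothelium list at 20.8 and 1.56, the fibroblast or mural list at 35.8 and 5.08, the astrocyte or radial glia list at 298 and 453, and the pan-neuronal list at 9926 and 8042. Their part in these differences was not tested. Summed, the members stood at 2511 CPM in control (16386 UMIs) and 2909 CPM in Sim1Het (15681 UMIs). Counting intervals lay above 0 for 18 members and below 0 for none, which says nothing about pups or preparations. The share of all genes with such intervals was not counted, so these counts do not set the family apart.

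The most captured members differed little. Pcdh17 stood at 489.8 CPM in control and 501.8 in Sim1Het, Cdh2 at 255.3 and 256.4, and Cdh13 at 227.4 and 231.0. Pcdh10 was higher in Sim1Het by 0.26 on the log2 scale (95% counting interval 0.15 to 0.37) and Pcdh9 by 0.48 (0.37 to 0.59). The 4 members farthest above 0 by the lower bound of the interval were Cdh6, Cdh11, Pcdh20 and Pcdh15. Cdh6, a type II cadherin, had only 12 and 31 UMIs, with a log2 ratio of 1.58 (0.64 to 2.74). Cdh11 stood at 112.5 CPM in control and 187.0 in Sim1Het, 0.73 (0.59 to 0.87). Pcdh20 had 32 and 60 UMIs, 1.16 (0.54 to 1.85), and Pcdh15, known from the tip links of hair cells, 158 and 232 UMIs, 0.83 (0.53 to 1.13).

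The groups made up unequal parts of the libraries: Foxb1 cells were 23.3% of control and 35.5% of Sim1Het cells. When the 9 groups were weighted equally, the ratio of Cdh11 went from 0.73 to 0.35, that of Pcdh15 from 0.83 to 0.02, that of Cdh6 from 1.58 to 0.04 and that of Pcdh19 from 0.49 to -0.09, while Pcdh20 stood at 1.36 and Pcdh9 at 0.54. Under equal weights 8 members were at least 1.5-fold lower, and the share of all genes that were so under these weights is not given here. The small gates with few UMIs then count as much as the large ones.

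**Figure D3:**
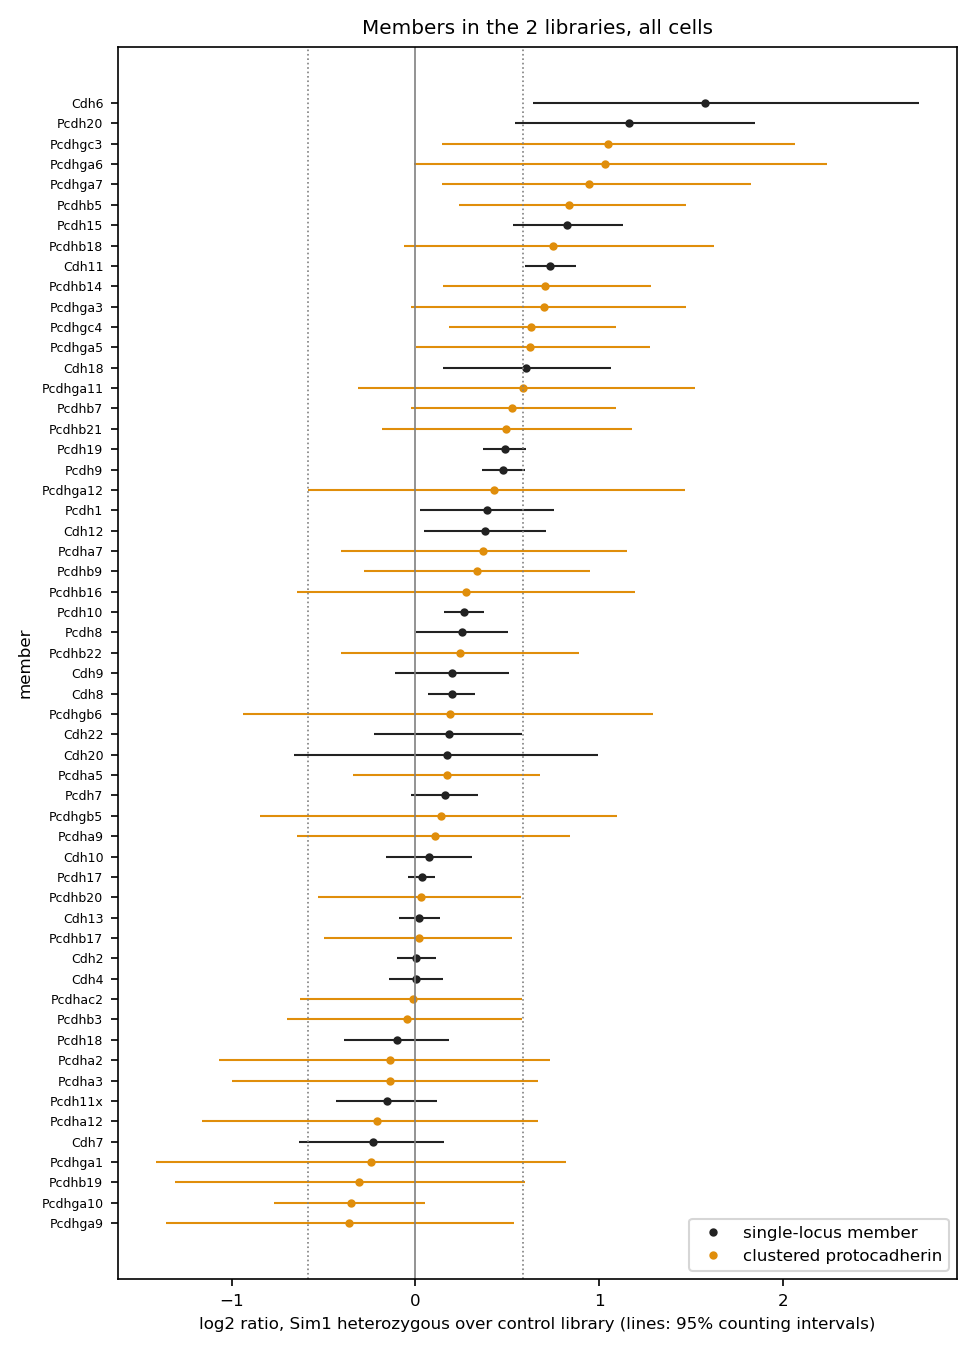
Log2 ratio of Sim1Het over control CPM for each of the 56 members over all cells, with 95% counting intervals (single-locus members in black, clustered protocadherins in orange, dotted lines at 1.5-fold). The 14 points beyond the right dotted line include Cdh6, Pcdh20, Pcdh15 and Cdh11, and no point lies beyond the left one.

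Within groups, the libraries differed in size and direction. Foxb1 cells had Cdh11 at 200.5 CPM in control and 284.4 in Sim1Het, and ungated cells at 98.3 and 131.7. In Oxt cells Pcdh17 was at 525.4 CPM in control (126 UMIs) and 172.8 in Sim1Het (8 UMIs), and in Avp cells at 457.9 CPM (39 UMIs) and 125.2 (3 UMIs). Foxb1 cells went the other way for Pcdh17, at 365.1 and 460.0 CPM, and ungated cells did not differ beyond counting error, at 542.1 and 545.5. Of the 126 control UMIs in Oxt cells, at most 17 came from 1 cell, and 44 of 67 cells (65.7%) had Pcdh17, against 4 of 10 (40.0%) in Sim1Het, with overlapping intervals. The Sim1Het Oxt and Avp groups are 10 and 15 cells, and the part of single pups in them cannot be told apart.

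Combinations were read in cells thinned to 857 UMIs, which left out 156 control and 613 Sim1Het cells as too shallow. In the thinned cells, 54.6% of control cells (52.7 to 56.5%) and 63.4% of Sim1Het cells (61.2 to 65.6%) had UMIs of at least 2 members, with a mean of 1.81 and 2.10 members per cell. The lowest control share was in Oxt cells (32.8%), followed by Trh (35.7%) and GABA cells (36.7%), whose intervals overlap, and the highest in Neurod6 (61.2%) and Crh cells (60.9%). Trh cells had 35.7% in control and 71.0% in Sim1Het, with intervals of 21.6 to 52.0% and 52.0 to 85.8%. At most 9 members were seen in a thinned cell.

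**Figure D4:**
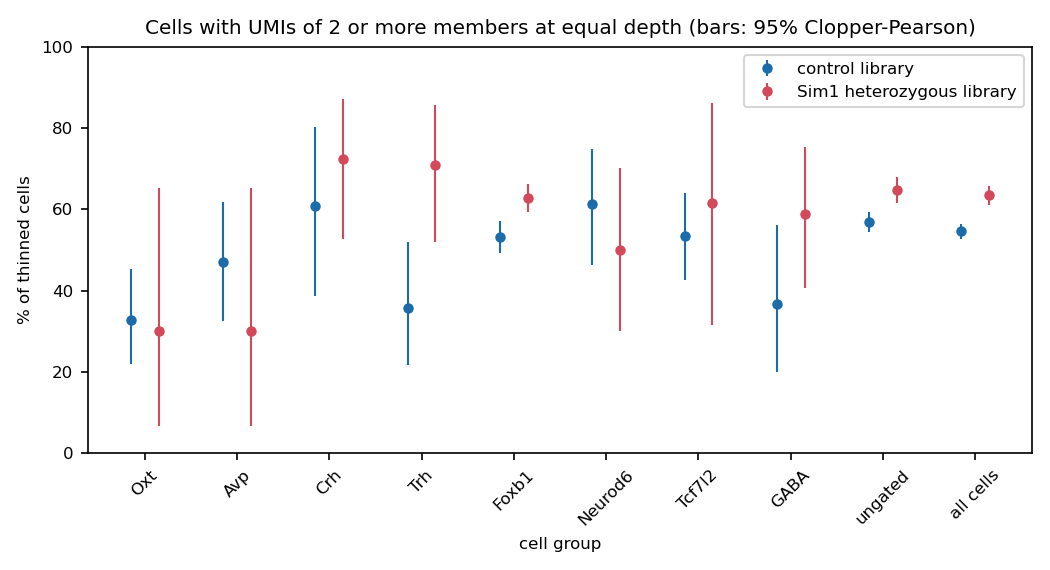
Share of cells thinned to 857 UMIs that had UMIs of at least 2 members, by gate and library, with 95% Clopper-Pearson intervals. Over all cells the share is 54.6% in control and 63.4% in Sim1Het, Oxt cells are lowest in control at 32.8%, and the intervals of the small gates are wide.

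The most captured gene, Pcdh17, was in the leading pair of every group except the Sim1Het Avp and Tcf7l2 cells, where no pair was in more than 1 cell. Pcdh17 with Cdh13 led in control Oxt cells (6 of 67, level with Pcdh17 and Cdh9) and in control Avp cells (3 of 49). Pcdh17 with Pcdh10 led in Crh cells (5 of 23 in control and 7 of 29 in Sim1Het), and Pcdh17 with Cdh2 in control Foxb1 (31 of 618) and ungated cells (112 of 1661). Sim1Het Foxb1 cells were led by Pcdh17 with Cdh11 (50 of 765 cells), and 42 had Pcdh19 with Cdh11.

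Few pairs departed from what their single shares give. Among the 10 most captured members there are 45 pairs, and the cells with both were set against the product of the single shares within the same group and library. Of the 45 ratios 28 were above 1 and 17 below, with a median of 1.06. The highest were Cdh4 with Pcdh7 (39 cells, 27.0 expected, ratio 1.45, 1.03 to 1.98), Pcdh19 with Cdh4 (85 cells, 61.4 expected, 1.38, 1.11 to 1.71) and Cdh8 with Pcdh7 (40 cells, 30.7 expected, 1.30, 0.93 to 1.77). The lowest was Pcdh17 with Pcdh9 (165 cells, 188.1 expected, 0.877, 0.749 to 1.02). Over 3 thinnings, 0 of 45 pairs had an interval above 1 in all 3 and 0 had one below. Pcdh19 with Cdh4 gave 0.968 with another random draw.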

How the data were processed

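The authors deposited UMI counts per gene and barcode, as a table for each library and a merged table, which held identical values. Per the submitters' processing notes, bcl2fastq, Picard, STAR 2.6.0b and Seurat 3 were used with the mouse build mm10. Not given in the sources used here: how UMIs were assigned to genes, with which annotation and strand setting, and how cell barcodes were picked. Doublets were not called, and cells in several gates were left out.

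Cells with at least 300 genes were kept and gated on raw UMIs. UMIs were summed per gate and library (18 sums) and fitted together in edgeR 4.0.16 (R 4.3.3) with TMM scaling, filterByExpr, a library term and the quasi-likelihood test; 4722 genes passed, and 4713 remained without the gate genes. The procedure was also run on counts simulated at the common spread that the fit itself estimated, which cannot check that estimate. A gene passes the filter more easily where it is high, as Cdh9 did through the Oxt and Avp gates. The low-count filter, scaling, gates, reference, cells and DESeq2 1.42.0 were varied.

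Levels have exact Poisson intervals, shares Clopper-Pearson intervals and library ratios (pseudocount 1 UMI) conditional exact binomial intervals, all at 95%, covering counting error only. Where nothing was counted, the upper limit was set at 3 UMIs or 3 cells. For combinations each cell was thinned to 857 UMIs.

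Members, lists and tests were chosen with earlier results of these data known. By rule, each gate names up to 3 members higher and 2 lower with the smallest adjusted p; the libraries name the 5 members with most UMIs and 4 each way by interval; pairs name the 3 highest ratios and the lowest. Other members named in gates were chosen after their values were seen.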

Additional observations from a re-analysis of the deposited data

Results flagged for a closer look

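Each of 128 gate differences was compared between the libraries, and each of 504 library ratios within groups was compared between groups. Values are listed where counting intervals lay on opposite sides of 0. The differences between groups or libraries were not tested, since each group has 1 library per genotype. Of the 504 ratios, 38 intervals left out 0 and 31 of these lay above it. The share over all genes was not counted.

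Cdh2 in Trh cells lay below ungated cells in the control library, by -0.77 on the log2 scale, and above them in the Sim1Het library, by 0.55. For Pcdh17, the log2 ratio of Sim1Het over control was -1.45 in Oxt cells and -1.49 in Avp cells, but 0.33 in Foxb1 cells and 0.82 in Tcf7l2 cells. For Pcdh19, that ratio was 0.46 in Foxb1 cells and 0.39 in ungated cells, but -1.75 in Neurod6 cells, where Sim1Het had 5 UMIs. For Cdh8, it was 2.32 in Crh cells and 1.47 in GABA cells, but -1.15 in Neurod6 cells. Of the 13 Cdh8 UMIs in Sim1Het Crh cells, 11 came from 1 cell, so the counting interval, which takes UMIs as independent, is too narrow there.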

How the results depend on the processing

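No paired analysis was possible because the labels give 1 library per genotype and no replicate numbers; library was a term of the gate fits. The count of members at least 1.5-fold higher in Sim1Het (14) was 5 among members with at least 100 UMIs and 24 over all matching symbols. The count of lower members (0) was 8 with equal weights for groups, 4 in thinned cells and 6 over all matching symbols. For these alternative counts of higher and lower members, the share over all genes is not given here. Thinned cells allowed a test of only 5 members and gave 1 call in the Oxt gate (8 as reported, 6 to 8 under the other alternatives), 1 in Avp, 1 in Crh, 3 in Foxb1 and 0 in Tcf7l2. Avp calls (4) were 2 with DESeq2, 2 with totals that leave out the gate genes, 2 without the library term, 2 at 500 genes per cell and 1 against the mean of the other gates. Foxb1 calls (7) were 3 with DESeq2 and 1 without the library term, and Tcf7l2 calls (3) were 1 with DESeq2, 0 without the library term and 0 without the deepest 2% of cells, where fewer members were tested. Against the mean of the other gates there were 2 calls in Crh, 3 in Neurod6 and 1 in GABA. Crh had 1 call with doubled thresholds and 1 without the deepest cells, and Trh had 1 without a filter and 1 with cells of several gates kept. At a thinning depth of 1583 UMIs, 81.0% of control and 87.3% of Sim1Het cells had at least 2 members. The ratio of Pcdh19 with Cdh4 was 0.968 with another draw and 1.10 at that depth. Cdh9 was called in the Oxt and Avp gates under each of the 11 alternatives that tested it. These include the one added after seeing the data (glia-marked cells left out). All but the fit without a filter used the low-count filter, which Cdh9 passed through its high values in these gates. It did not enter the thinned fit. Where not stated, the cause of a change was not tested. Depth limits the Sim1Het Oxt, Avp and Tcf7l2 gates most, with 46304, 23966 and 66203 UMIs.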
